A study of Mus musculus with 6 samples.

Results

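The genes of the cytosolic ribosomal proteins were followed in 344SQ tumours sorted on CD133. Members were the genes whose array symbol is that of a large-subunit (Rpl) or small-subunit (Rps) protein, together with Rplp0, Rplp1, Rplp2 and Rpsa and without the S6 kinases. Only probe sets assigned to 1 gene alone were used, and each gene was represented by its brightest probe set over all 6 arrays. This gave 51 genes out of 18193 measured, 26 of the large and 25 of the small subunit, from 107 probe sets. Of the 51, 43 are core proteins of the ribosome. A further 6 are paralogs (Rpl3l, Rpl7l1, Rpl22l1, Rpl39l, Rps4l and Rps27l) and 1 is a pseudogene (Rps15a-ps6). The last, Rps19bp1, matches by its symbol but encodes a protein that binds Rps19 and is not part of the ribosome. For 34 of 77 core genes, among them Rplp1, Rpl5 and Rpl10, no probe set was assigned to the gene alone, so they are not among the members.

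The ribosome joins a small subunit, which reads the messenger RNA, with a large subunit, which forms the peptide bonds and holds the exit tunnel. Its proteins are needed in matched amounts, and many of their messengers begin with a short stretch of pyrimidines, the 5′ terminal oligopyrimidine tract, through which mTOR signalling controls their translation. In tumours, ribosome supply is tied to growth, and the messengers are among the most abundant of any cell.

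344SQ is 1 cell line of lung adenocarcinoma from a mouse that carried KrasLA1/+ and p53R172HdelG/+, so all tumours share both alleles. The line was injected under the skin of syngeneic mice, which keep their own immune system, and cells of the tumours were separated by flow cytometry on CD133. The fraction with high CD133 and that with low CD133 have 3 arrays each, called high 1 to high 3 and low 1 to low 3 below, numbered in deposit order with no pairing. The labels give no strain, age, treatment or count of animals, and none says that arrays of a fraction came from separate tumours, so each p-value speaks only of the spread among these arrays, which may be technical. All values are log2 probe set values of Affymetrix mouse arrays, and all differences are CD133 high minus CD133 low.

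Several features of the arrays bear on what follows. Prom1, the gene of CD133, was separated between the fractions but did not pass the test (limma, adjusted p = 0.297). It read 5.49, 5.92 and 6.06 on the low arrays and 6.80, 6.63 and 6.40 on high 1, high 2 and high 3. High 1 had a mean Spearman rho across probe sets of 0.973 with the low arrays and of 0.931 with the other high arrays. Of 8 tumour epithelial markers all were measured, 0 passed in limma, 1 was lower and 0 higher at an unadjusted p under 0.05, and their summed log2 level was 14.40 to 14.60 on the low arrays and 14.25 to 14.73 on the high arrays. The number of arrays limits the precision.

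The ribosomal protein genes had lower median values in the CD133 high fraction, but no single gene passed the test. In sorted bulk fractions, fewer cells of a type and less RNA per cell cannot be told apart. The difference was negative for 45 of the 51 members, against 49.8% of all genes. The median difference was −0.41 over the large-subunit genes, a fold of 0.752, and −0.18 over the small-subunit genes, a fold of 0.883, beside 0.0013 over all genes. In limma 0 members passed an adjusted p of 0.05 in either direction, where 0.231% of all genes passed as lower and 0.022% as higher, and 0.167% and 0.0155% of all probe sets. At an unadjusted p under 0.05 there were 9 lower members and 0 higher, where 9.94% of all genes were lower and 8.3% higher. The 3 high arrays all lay below the 3 low arrays for 21 members and above them for 2, and such separation was seen for 12.8% and 10.8% of all genes. These counts describe genes that share the same 6 arrays and are not independent of one another.

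**Figure D1:**
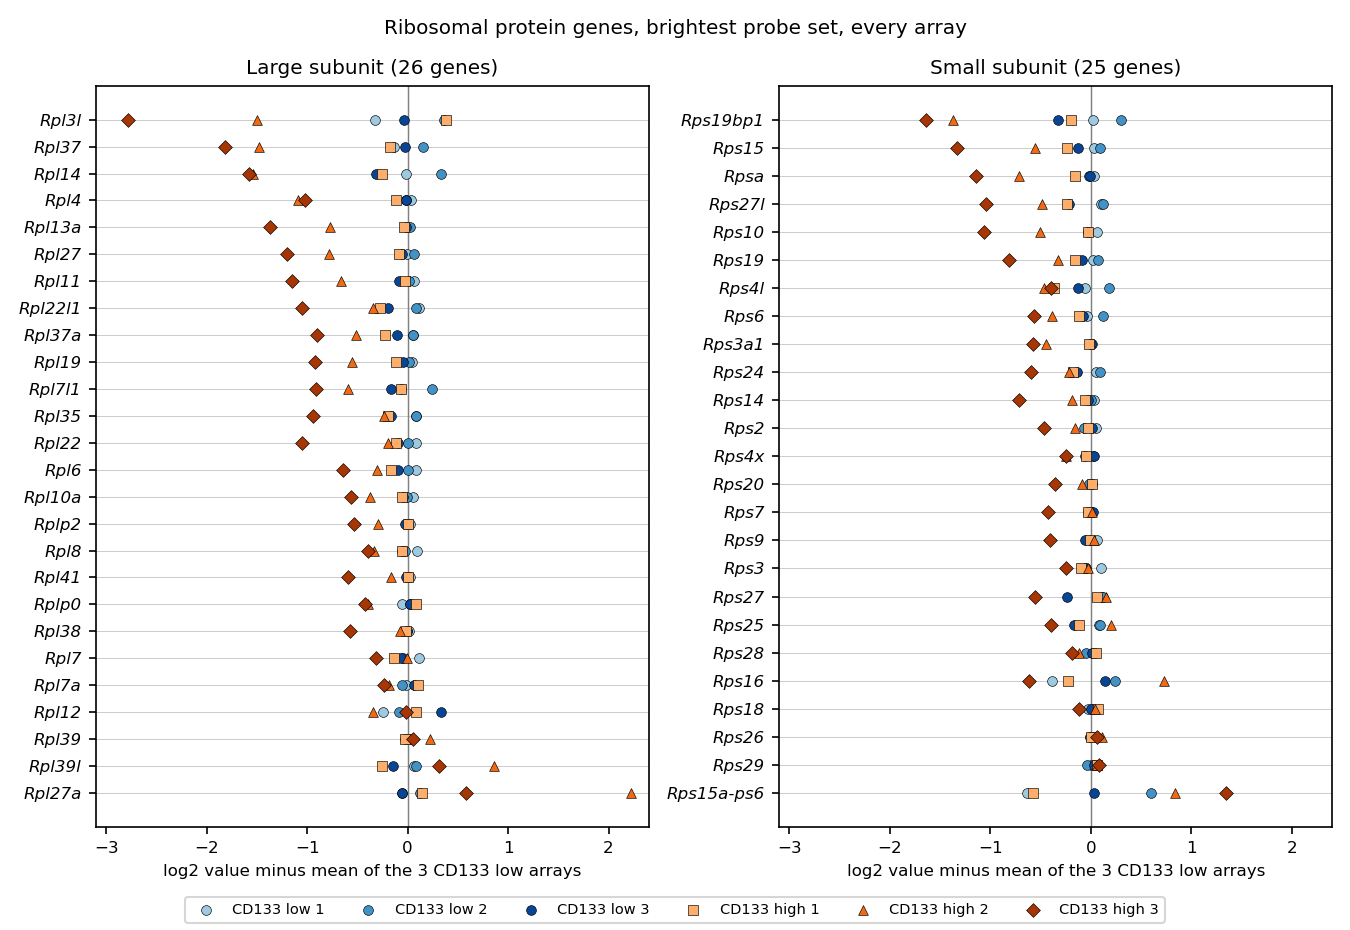
Log2 value of each ribosomal protein gene on each array, minus the mean of the low arrays, for 26 large-subunit genes (left) and 25 small-subunit genes (right), with 1 marker per array. High 3 is the lowest of the 6 arrays for 41 of the 51 genes, and high 1 lies near the low arrays.

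The low values came mostly from high 2 and high 3. Relative to the mean of the low arrays, the large-subunit genes had medians of −0.064, −0.35 and −0.77 on high 1, high 2 and high 3. The small-subunit genes had medians of −0.060, −0.16 and −0.47 in the same order. Over all genes these medians were −0.0066, 0.037 and −0.037. The count of members below the mean of the low arrays was 38, 39 and 45 of 51 on the 3 high arrays. Of the 25 small-subunit members, 19, 16 and 22 lay below it. Over all 18193 genes the counts were 9231, 8693 and 9451.

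Without high 1, 17 members passed as lower and 0 as higher, where 14.6% of all genes passed as lower and 11.7% as higher. Of the 17, 12 were counted with the large and 5 with the small subunit. The 12 include the dim Rpl3l, and the 5 include Rps19bp1, which is not part of the ribosome. With high 1 as the only high array, the medians were −0.064 for the large and −0.060 for the small subunit, and 0 members passed. The array weights that limma estimated were 0.248 for high 1, 0.756 and 1.003 for high 2 and high 3, and 1.35 to 2.67 for the low arrays. With these weights 11 members passed as lower, where 7.69% of all genes did and 5.91% passed as higher, and all 11 were among the 17.

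**Figure D2:**
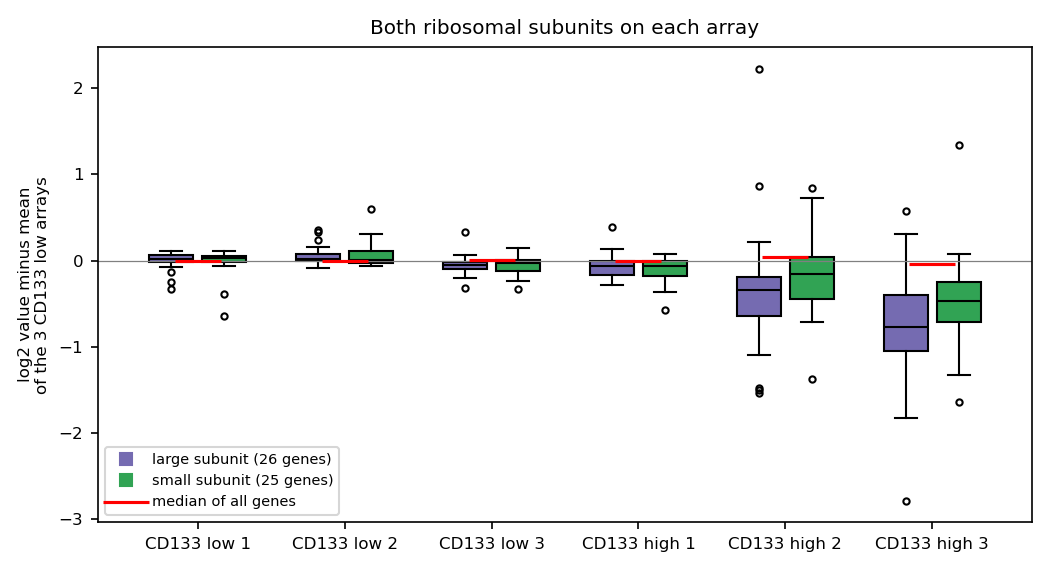
Box plots of the log2 value minus the mean of the low arrays, per array, for large-subunit (26) and small-subunit (25) genes; boxes span the quartiles, whiskers reach the last gene within 1.5 times the box length, circles are genes beyond, and red lines are the medians of all 18193 genes. The boxes overlap, and the large-subunit median lies below the small-subunit median on high 2 and high 3, at −0.35 against −0.16 and −0.77 against −0.47.

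The large-subunit genes read lower than the small-subunit genes, with a difference of medians of −0.23. This gap was present on high 2 and high 3 and was −0.0031 with high 1 alone. Without high 3 the gap was −0.12, a move from −0.23 that is larger than its pooled SD between arrays of 0.108. Among the 39 members with a mean of 10 or more, a limit chosen after seeing the data, the brighter 20 had a median difference of −0.23 and the dimmer 19 one of −0.45. Across all 51 members, Spearman's rho between probe set level and difference was 0.14. Across the 39 genes, which share all 6 arrays and are not independent, it was 0.35. Their median probe set level was 13.56 in the small and 13.31 in the large subunit, and the part of the level in the gap between subunits was not tested. No test of the gap between subunits was made, because the members were chosen together and share arrays. With probe sets that also name pseudogenes or other genes, an alternative chosen after seeing the data, 70 core genes could be counted. All of the 44 large-subunit genes among them had a negative difference, with a median of −0.35, as did 22 of 26 small-subunit genes, with a median of −0.15. No value of a single gene is given from these shared probe sets.

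In the large subunit the member with the largest difference among the core genes was Rpl37, a zinc-binding protein. It read 12.42, 12.71 and 12.53 on the low arrays and 12.38, 11.07 and 10.73 on high 1, high 2 and high 3. The fractions did not overlap, but high 1 lay just under the lowest low array. The difference was −1.16 (SE 0.41, limma, adjusted p = 0.298).

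Rpl4, whose long extension lines the exit tunnel, read 13.71, 13.65 and 13.66 in the CD133 low fraction and 13.56, 12.58 and 12.65 in the CD133 high fraction. Its difference was −0.74 (SE 0.28, limma, adjusted p = 0.305), with high 2 and high 3 both far below the rest. Rpl14 read 8.91, 9.26 and 8.60 against 8.67, 7.38 and 7.34, and here high 1 lay within the range of the low arrays. That difference was −1.12 (SE 0.39, limma, adjusted p = 0.297), the smallest adjusted p of any member.

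Rpl13a, which can also leave the ribosome to silence messengers in interferon-treated myeloid cells, read 13.86, 13.89 and 13.84 on the low arrays. On the high arrays it read 13.83, 13.09 and 12.50, all below the low arrays. The difference of −0.73 had an SE of 0.33 and an adjusted p of 0.336 in limma. Rpl27 and Rpl37a had the same order of arrays and differences of −0.69 and −0.55, with adjusted p of 0.319 and 0.309 in limma. Rpl19 and Rpl35 differed by −0.53 and −0.46, and neither passed.

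Rpl11, which with Rpl5 and the 5S RNA can bind Mdm2 and so spare p53, read 13.24, 13.20 and 13.10 in the CD133 low fraction and 13.15, 12.51 and 12.03 in the CD133 high fraction. The fractions overlapped, since high 1 lay within the range of the low arrays, and the difference was −0.61 (SE 0.29, limma, adjusted p = 0.343). Without high 1 the difference of Rpl11 was −0.91 (limma, adjusted p = 0.0185). The values of Rpl5, its partner, are not given because none of its probe sets is its own.

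The stalk that recruits translation GTPases was represented by Rplp0 and Rplp2. Rplp0, its base, read 13.48, 13.55 and 13.56 against 13.61, 13.13 and 13.10, so high 1 was the highest array and high 2 and high 3 the lowest. The differences of Rplp0 and Rplp2 were −0.25 (SE 0.20) and −0.28 (SE 0.20). Their adjusted p in limma was 0.532 and 0.486, and their fractions overlapped. Rpl38, needed in mice for the translation of Hox messengers, stood at 13.88, 13.82 and 13.32 in the CD133 high fraction and at 13.88 to 13.90 in the CD133 low fraction. Its difference of −0.22 (limma, adjusted p = 0.597) therefore rested mostly on high 3. Rpl10a differed by −0.33 and Rpl7 by −0.15.

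A few large-subunit genes did not share the direction at the brightest probe set of their own. With shared probe sets allowed, all 44 large-subunit core genes were negative. The signs of Rpl27a and Rpl39 given here therefore depend on the probe set. Rpl27a read 10.81, 10.98 and 10.81 on the low arrays and 11.0045, 13.09 and 11.44 on the high arrays. All 3 high arrays lay above, and high 2 stood alone near 13. The difference of 0.98 (SE 0.51) had an adjusted p of 0.367 in limma, and without high 2 it was 0.36. Rpl39, a small protein of the exit tunnel, differed by 0.084 (SE 0.15, limma, adjusted p = 0.794), and its paralog Rpl39l, best known from testis, by 0.31 (SE 0.28, adjusted p = 0.587). Both signs turned with high 1 alone, at −0.022 and −0.25.

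The remaining large-subunit paralogs were read beside their parents. Rpl22, which is needed for the development of alpha-beta T cells, differed by −0.45, and its paralog Rpl22l1 by −0.56 (limma, adjusted p = 0.425 and 0.327). Rpl22 differed by −1.11 at its other bright probe set and by 0.021 at a dimmer one, so the order of this pair depends on the probe set. Rpl22l1 read 12.79, 12.75 and 12.48 against 12.40, 12.33 and 11.62, without overlap. Rpl7l1 differed by −0.52, while Rpl7 differed by −0.15 at its brightest probe set and by −0.57 and −0.68 at its other bright ones, so the order of this pair depends on the probe set. Rpl3l, a form of muscle, was dim, at 4.85, 5.54 and 5.14 against 5.56, 3.67 and 2.39, and its difference of −1.30 (SE 0.78, limma, adjusted p = 0.417) is not well measured.

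In the small subunit the core genes with the largest differences were Rps15 and Rpsa. Rps15, needed for export of the maturing subunit from the nucleus, read 13.11, 13.16 and 12.95 in the CD133 low fraction and 12.84, 12.52 and 11.75 in the CD133 high fraction. The difference was −0.71 (SE 0.29, limma, adjusted p = 0.314), and the fractions did not overlap. Rpsa, also known as a laminin receptor, read 13.60, 13.54 and 13.55 against 13.40, 12.85 and 12.41. All 3 high arrays lay below, and the difference was −0.67 (SE 0.26, limma, adjusted p = 0.307).

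Rps27l, a paralog of Rps27 that p53 induces, read 12.98, 13.01 and 12.66 against 12.65, 12.40 and 11.84. Its difference was −0.59 (SE 0.25, limma, adjusted p = 0.317), beside −0.11 for Rps27 (adjusted p = 0.825), whose fractions overlapped. The pair was not read at the same level. Rps27 had 1 probe set, with means of 7.78 and 7.67 in the CD133 low and CD133 high fractions, beside 12.89 and 12.29 for Rps27l. Rps4l, read at 7.08, 7.33 and 7.02 against 6.77, 6.67 and 6.74, was a member whose 3 high arrays were close together. It differed by −0.41 (limma, adjusted p = 0.335), and Rps4x, its X-linked relative, by −0.18.

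Rps19, the gene most often mutated in Diamond-Blackfan anaemia, read 13.54, 13.59 and 13.43 against 13.36, 13.19 and 12.71. The difference was −0.44 (SE 0.21, limma, adjusted p = 0.353), without overlap. Rps14, lost in the 5q− syndrome, differed by −0.32, and Rps6, the substrate of the S6 kinases, by −0.36 (limma, adjusted p = 0.464 and 0.347). Rps6 read 8.74, 8.89 and 8.69 on the low arrays and 8.65, 8.39 and 8.21 on the high arrays, again without overlap. Rps3a1 and Rps24 differed by −0.35 and −0.33. Rps19bp1, the binding partner of Rps19, read 8.70, 8.98 and 8.34 against 8.47, 7.30 and 7.03 and differed by −1.07 (SE 0.39, limma, adjusted p = 0.300).

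Several other small-subunit core genes had differences near 0. Rps29, a zinc-binding protein, read 14.03, 13.99 and 14.05 against 14.08, 14.09 and 14.10. The high arrays were all above, yet the difference was 0.069 (SE 0.16, limma, adjusted p = 0.841), and with quantile normalization it was −0.027. Rps26, at the messenger exit channel, differed by 0.057 (limma, adjusted p = 0.857). Rps3, at the messenger entry channel, differed by −0.12, and Rps25, which serves initiation at internal ribosome entry sites, by −0.10 (limma, adjusted p = 0.713 and 0.796). The highest difference in the small subunit was that of the pseudogene Rps15a-ps6, at 0.54 (SE 0.64, limma, adjusted p = 0.680), which was dim on every array.

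Members varied more among high arrays than among low arrays. Most members lie near the top of the scale, with a median level of 13.30 against 7.64 over all genes, so their SDs and those of all genes are not measured at the same level. The median SD over 3 arrays was 0.0792 in the CD133 low fraction and 0.307 in the CD133 high fraction. Over all genes these SDs were 0.191 and 0.393.

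Probe sets of 1 gene did not give 1 value. Of the members, 18 had several probe sets with a mean of 10 or more, and 52 such probe sets in all. In 14 of these 18 genes, the median difference of the other bright probe sets was lower than the difference of the brightest one. The median difference was −0.33 at the brightest probe sets and −0.55 when the other probe sets of each gene were taken. Rps18 had the widest spread, with −0.0029 at its brightest probe set and −0.51 and −1.06 at the others. Its lowest probe set read 13.50, 13.44 and 13.30 on the low arrays and 13.23, 12.24 and 11.60 on the high arrays. At its brightest probe set, Rps18 read 13.73, 13.79 and 13.77 against 13.84, 13.80 and 13.64, so the fractions overlapped there and not at the other. Rpl22 differed by −1.11 at its other bright probe set, Rps7, chosen after its values were seen, by −0.74 beside −0.15, and Rpl7 by −0.57 and −0.68 beside −0.15.

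**Figure D3:**
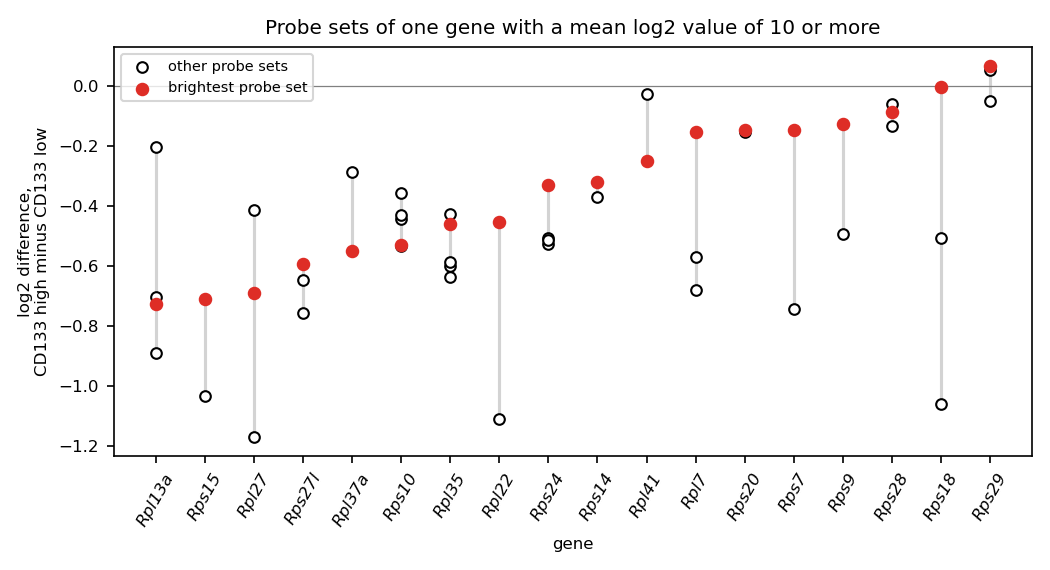
Log2 difference, CD133 high minus CD133 low, of every probe set with a mean log2 value of 10 or more, for the 18 ribosomal protein genes with several such probe sets; red points are the brightest probe set of the gene. The brightest probe set lies above the median of the others in 14 of the 18 genes, and the spread is widest in Rps18.

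Over all 73 bright probe sets of the members, 68 differences were negative and the median was −0.43. The 34 dimmer probe sets had 20 negative and 14 positive differences and a median of −0.089. Among the dimmer ones, Rpsa differed by 0.93 at its other probe set, Rps6 by 1.06 and Rps24 by up to 0.95, each against the sign of its brightest probe set. With the mean of all probe sets of a gene, Rpsa and Rps6 therefore differed by 0.13 and 0.35. The other probe set of Rpl27a, at a mean level of 4.02, differed by 2.45, with the sign of its brightest one. A dimmer probe set of Rps20 differed by 1.03, beside −0.15 at its brightest and −0.32 at another dim one. In both rises all 3 high arrays lay above the low arrays, and neither passed (limma, adjusted p = 0.261 and 0.294). The part of the signal level in the gaps between probe sets of a gene was not tested.

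The start sites of the members were read for the pyrimidine tract named above. RefSeq sequences of build GRCm38.p6 matched 44 of the 51 members. Chosen to show members with and without the tract from both subunits, at large and small differences, the windows below hold 15 bases before and 15 after an annotated start, on the strand of the gene, with capitals marking a run that begins with C and holds at least 5 pyrimidines.
Rpl38 (chr11:114668565-114668594, + strand): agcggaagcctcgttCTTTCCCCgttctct
Rpl35 (chr2:39005117-39005146, − strand): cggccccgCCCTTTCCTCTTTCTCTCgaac
Rpl14 (chr9:120571502-120571531, + strand): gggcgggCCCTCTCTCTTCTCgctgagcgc
Rps6 (chr4:86857353-86857382, − strand): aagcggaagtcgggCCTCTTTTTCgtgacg
Rps18 (chr17:33955651-33955680, − strand): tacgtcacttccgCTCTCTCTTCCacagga
Rps27 (chr3:90213634-90213663, − strand): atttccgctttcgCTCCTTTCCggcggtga
Rpl37 (chr15:5116598-5116627, + strand): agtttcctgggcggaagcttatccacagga
Rpsa (chr9:120127751-120127780, + strand): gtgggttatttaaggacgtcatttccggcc
The first 6 carry a run at or close to the annotated start, and Rpl37 and Rpsa, among the lowest members of their subunits, have none in this window.

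Such a run began within 10 bases of a start, on the strand of the gene, in 27 of the 44 members, or 61.4%, and in 34.4% of all 27025 genes of that table. Exactly at the annotated start it was found in 18.2% of members and 3.01% of all genes. The 27 members with a run had a median difference of −0.33, and the 17 without one had −0.52. In the small subunit the order was turned, at −0.22 with a run and −0.18 without. Annotated starts can lie some bases from those a cell uses, so a match describes letters and not a working tract.

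Translation factors and ribosome assembly factors, from lists of other genes of the pathway, were read beside the ribosomal proteins. The translation factor list also holds Naca, Btf3, Npm1, Hnrnpa1 and Tpt1, which are not translation factors in the strict sense. Of its 34 genes, 28 had a negative difference, with a median of −0.29, and 0 passed in limma. At an unadjusted p under 0.05, 11 were lower and 1 higher, beside 9.94% and 8.3% of all genes. Eif3k and Eif3d, subunits of the initiation factor that binds the small subunit, differed by −1.27 (SE 0.39) and −1.02 (SE 0.32), each with an adjusted p of 0.297. Etf1, the release factor that reads stop codons, went the other way, at 10.84, 10.61 and 11.01 against 11.26, 11.78 and 11.99. Its difference was 0.86 (SE 0.23, limma, adjusted p = 0.279).

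Of 47 ribosome biogenesis genes, 40 had a negative difference, with a median of −0.42, and 0 passed in limma. At an unadjusted p under 0.05, 11 were lower and 3 higher, beside 9.94% and 8.3% of all genes. Emg1 and Imp3, which act in the processing of the small subunit's RNA, differed by −1.15 (SE 0.32) and −0.77 (SE 0.25). Nop10, of the particles that place pseudouridines, differed by −0.56, and its fractions, like those of Emg1 and Imp3, did not overlap. In the same list 7 genes went the other way, among them Heatr1 at 1.42, Gar1 at 0.83 and Dkc1 at 0.45. The fractions of Heatr1, Gar1 and Dkc1 overlapped. Of 23 genes that signal to the ribosome, 12 were negative, with a median of −0.090 and 0 passing in limma. At an unadjusted p under 0.05, 1 was lower and 3 higher, beside the same 9.94% and 8.3% of all genes. Mycn, a transcription factor of the Myc family, differed by 0.95 and Larp4, which binds poly(A) tails, by 0.84 (limma, adjusted p = 0.297 and 0.299). Mycn was dim, with means of 6.42 and 7.37 in the CD133 low and CD133 high fractions. Myc itself, at 9.77 and 9.38, went the other way at −0.39 (limma, adjusted p = 0.463), and Mycl differed by 0.17. The dim Rps6kl1, listed at 0 on 1 low array, gets no size. Fau, which encodes the small-subunit protein S30 as a fusion and lies outside the symbol rule, read 13.61, 13.60 and 13.44 against 13.52, 13.03 and 12.53. High 1 lay within the range of the low arrays, and the difference of Fau was −0.52 (SE 0.27, limma, adjusted p = 0.364).

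Without high 1, 16 genes of the translation factor list passed as lower and 2 as higher. In the biogenesis list 21 passed as lower and 5 as higher, beside the 14.6% and 11.7% of all genes.

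**Figure D4:**
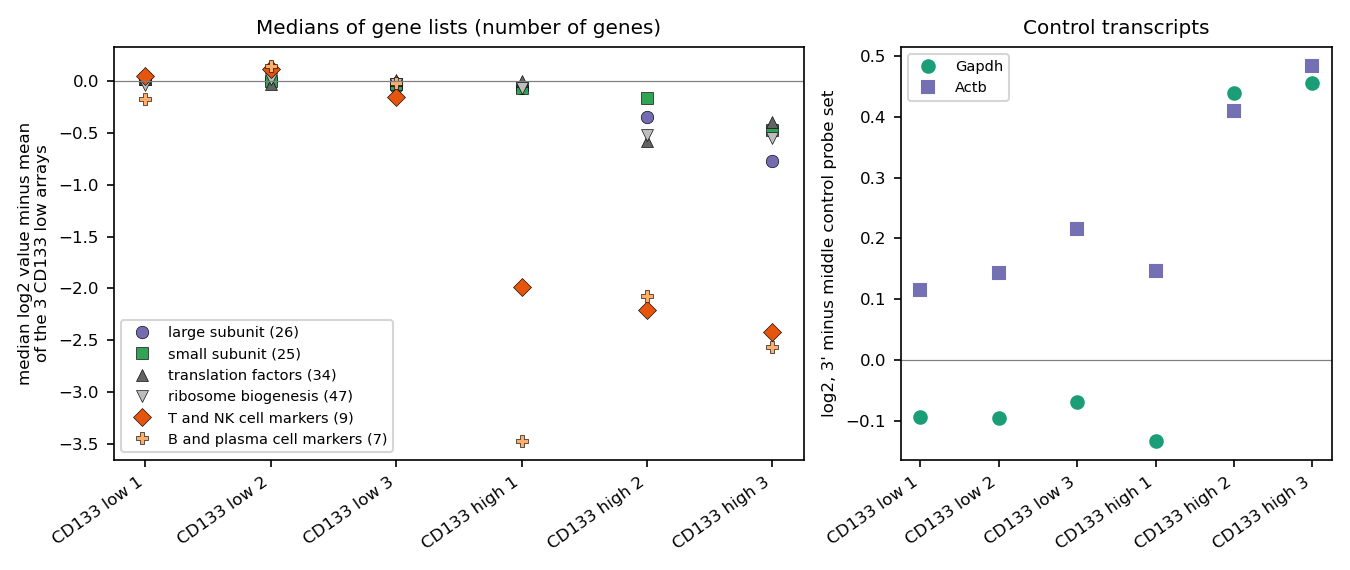
Left, median log2 value minus the mean of the low arrays for 6 gene lists on each array, with the number of genes in the legend; right, log2 value of the 3′ control probe set minus that in the middle of the transcript for Gapdh and Actb. The ribosomal lists lie near 0 on high 1, where T and natural killer cell markers stand at −1.99, and both control differences are highest on high 2 and high 3.

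Markers of other cell types and RNA controls also differed between the arrays. Of 9 measured T and natural killer cell markers, 5 fell in limma, and 8 were separated between the fractions. Of all genes, 0.231% passed as lower and 12.8% were separated as lower. Their summed log2 level ran from 12.55 to 12.97 on the low arrays and from 10.35 to 11.08 on the high arrays, with Cd4 near the bottom of the scale on both. The T and natural killer list was followed by that of B and plasma cells. Of 7 B and plasma cell markers, 3 fell, and their summed level ran from 14.22 to 14.53 and from 11.83 to 13.45. In this list 5 markers were separated as lower, while Cd22 and Pax5 differed by −0.22 and 0.069 and their fractions overlapped. On high 1 the medians of these lists were −1.99 and −3.47, beside −0.064 and −0.060 for the large and small ribosomal subunits.

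Other marker lists differed among the high arrays. High 2 and high 3 had lower leukocyte and neutrophil medians than high 1, and higher fibroblast medians. The 6 pan-leukocyte markers had medians of −0.011, −0.81 and −0.92 on high 1, high 2 and high 3. Their summed level ran from 15.46 to 15.50 on the low arrays and from 14.80 to 15.54 on the high arrays. This list was split. On high 2 and high 3, Coro1a, Cd52, Rac2 and Laptm5 stood between −1.95 and −0.74 against the low mean. Ptprc stood at 0.23, −0.23 and 0.077 on high 1, high 2 and high 3, and Cd53 at 0.35, 0.34 and −0.055. The 4 measured neutrophil markers had medians of 0.93, −0.66 and −1.35, and the 6 fibroblast markers −0.0017, 0.25 and 0.53. Macrophage (6), endothelial (5) and erythroid (3) markers had median differences of −0.030, 0.088 and −0.35. None of these 6 lists had a marker that passed in limma, where 2 leukocyte and 1 erythroid marker were lower and 1 macrophage marker was higher at an unadjusted p under 0.05.

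The 3′ Gapdh control probe set exceeded the middle one by −0.093, −0.095 and −0.070 on the low arrays and by −0.13, 0.44 and 0.46 on high 1, high 2 and high 3. For Actb these differences were 0.12, 0.14 and 0.21, then 0.15, 0.41 and 0.48. The bacterial hybridisation controls averaged 9.94 to 10.28 on the low arrays and 10.18, 11.05 and 10.81 on the high arrays. The part of the other cell types and of these controls in the ribosomal values was not tested.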

How the data were processed

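RNA of the sorted CD133 high and CD133 low fractions was hybridised as biotinylated cRNA to 6 Affymetrix mouse arrays, per the labels' protocols. The table deposited by the authors holds log2 values, as judged from their range; the sources used here do not give its summarisation, normalization or tools. The series text names a 430A 2.0 chip, but the table held the probe sets of a larger design. It held 45101 probe sets, of which 64 controls were left out, leaving 45037. Gene names came from the platform annotation, in which 34945 probe sets have 1 gene, 932 several and 9160 are unnamed here; all 51 members matched RefSeq by Entrez gene.

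The contrast of high against low was fitted in limma 3.58.1 (R 4.3.3) to the deposited log2 values, with a variance trend, two-sided, Benjamini-Hochberg adjusted over all 45037 probe sets, threshold 0.05. Error of a difference is the model's SE. With 3 arrays on each side, exact permutation reaches no p below 0.1 and was not used. The fit was tested on simulated data.

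The members, gene lists and tests were chosen with earlier results of these data known. Named genes were, per subunit, those with the smallest p, the highest and lowest differences, those with separated fractions and those with a role of their own, the genes whose probe sets differ most, and up to 3 per other list. Alternatives were other normalizations, filters, variance models, probe set choices and leaving out each array.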

Additional observations from a re-analysis of the deposited data

How the results depend on the processing

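The subunit medians stayed negative under every alternative run, between −0.54 and −0.064 for the large and between −0.25 and −0.060 for the small subunit, and 0 members passed in limma except with array weights (11 lower) or without CD133 high replicate 1 (17 lower). The large-subunit median moved by more than the SD between arrays with CD133 high replicate 1 alone (−0.064), and the gap between subunits did so there (−0.0031) and without CD133 high replicate 3 (−0.12). Leaving out single arrays put the gap between −0.29 and −0.12, the members called lower between 0 and 17, and probe sets called between 0 and 4277 higher and 0 and 5326 lower, each highest without CD133 high replicate 1. In the same runs, genes of the translation factor list called lower ran from 0 to 16 and higher from 0 to 2. Biogenesis genes ran from 0 to 21 and 0 to 5, and signalling genes from 0 to 4 and 0 to 2.

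Probe sets called higher and lower, 7 and 75 as reported, were 12 and 152 with equal medians, 13 and 144 with equal 75th percentiles, 11 and 164 without the dimmest 50%, 13 and 172 with a robust trend, and 1 and 6 with no trend. They were 2133 and 2675 with array weights, and 0 and 0 with CD133 high replicate 1 alone, and 31 were lower with values below 5 set to 5. Array weights called 12 genes of the translation factor list lower and 1 higher. They also called 10 biogenesis genes lower and 4 higher, and 2 signalling genes higher. With shared probe sets 44 large-subunit genes were negative. The cause of these moves was not tested.

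Some signs turned, with neither the main value nor the turned one past the threshold. These included the large differences of Rpl3l, Rpsa and Rps15a-ps6. Of the genes that turned, Rpsa, Rpl3l and Rplp0 passed as lower in limma without CD133 high replicate 1, at −0.93, −2.15 and −0.41. Rpsa also passed with array weights. Quantile normalization gave −0.027 for Rps29 and 0.043 for Rps18. The mean of all probe sets gave 0.13 for Rpsa, 0.35 for Rps6, 0.042 for Rps3 and 0.062 for Rps4x, and leaving out probe sets of shared sequence gave 0.064 for Rps24. Leaving out CD133 low replicate 2 gave 0.0099 for Rps18, and leaving out CD133 high replicate 3 gave 0.043 for Rps25, 0.11 for Rps27 and 0.056 for Rps18. Over all runs without a single array Rps27 ranged from −0.24 to 0.11 and Rps18 from −0.041 to 0.056. With CD133 high replicate 1 alone, Rpl39l stood at −0.25, Rpl39 at −0.022, Rpl3l at 0.38, Rps15a-ps6 at −0.57, Rplp0 at 0.084, Rplp2 at 0.0019, Rps27 at 0.064 and Rps18 at 0.073. Rps15a-ps6 had no value with values below 5 set to 5. No paired analysis was possible because the labels give no replicate numbers.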
